A study of Mus musculus with 6 samples.

Results

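The RAS-like and RASSF genes examined here are 10 genes of a table of 19730 rows, taken as the rows whose symbol was Rasl11a, Rasl11b, Rasl12, Rassf1, Rassf2, Rassf3, Rassf4, Rassf5, Rassf8 or Rassf9. All 10 were found, 3 of them RAS-like GTPases and 7 of them RASSF genes. They were named with their Control and TGF-β1 values known, so the values below describe them and were not tested. RNA-Seq had been carried out on mouse primary mesangial cells, which surround and support the glomerular capillaries of the kidney, in 3 Control and 3 TGF-β1 libraries. All cultures were at passage 3 to 6 in medium with 25.5 mM glucose and 20% fetal serum, so the Control cells were grown in high glucose as well. The TGF-β1 cultures received 10 ng/ml of transforming growth factor beta 1, a cytokine known for its part in kidney fibrosis, for 72 h. The labels do not say whether the 3 libraries of a group came from separate cultures, and the p-values below measure the spread between these libraries, which may be technical. The strain, sex and age of the donor animals are not given in the sources used here.

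RAS proteins are molecular switches that are active when bound to GTP. Exchange factors load them with GTP, and GTPase-activating proteins switch them off. The RAS-like GTPases of the RASL11 and RASL12 type share the GTP-binding fold but are far less studied than RAS itself. RASSF proteins carry a RAS-association domain and have no enzyme activity. Those with the domain near the C-terminus, RASSF1 to RASSF6, also carry a SARAH domain through which they bind the MST kinases of the Hippo pathway, and RASSF7 to RASSF10 carry the domain near the N-terminus and lack SARAH. RASSF1 is best known as a tumour suppressor whose promoter is silenced by DNA methylation in many cancers.

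Promoter sequences are shown for the RAS-like genes, because these close relatives differed in the direction of their change. RefSeq (GRCm38.p6) promoter windows were matched by symbol for 7 of the 10 genes, 8 windows in all, and 250 bases before the annotated start were read from each. Rassf3, Rassf8 and Rassf9 were not matched. Searched on both strands were CAGAC (the SMAD motif), TGANTCA (AP-1), GGAATG (TEAD) and CACGTG (E-box), and capitals mark the matches. The Rasl11a window lies at chr5:146844821-146845070, the Rasl11b window at chr5:74195076-74195325 and the Rasl12 window at chr9:65398238-65398487, all on the + strand of GRCm38.p6, a later build than the mm9 of the FPKM table.
Rasl11a: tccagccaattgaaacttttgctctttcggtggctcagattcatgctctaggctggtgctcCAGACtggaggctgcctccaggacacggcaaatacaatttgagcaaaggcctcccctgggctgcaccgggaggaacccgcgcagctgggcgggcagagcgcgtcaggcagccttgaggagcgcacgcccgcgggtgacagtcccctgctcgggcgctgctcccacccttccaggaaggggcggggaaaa
Rasl11b: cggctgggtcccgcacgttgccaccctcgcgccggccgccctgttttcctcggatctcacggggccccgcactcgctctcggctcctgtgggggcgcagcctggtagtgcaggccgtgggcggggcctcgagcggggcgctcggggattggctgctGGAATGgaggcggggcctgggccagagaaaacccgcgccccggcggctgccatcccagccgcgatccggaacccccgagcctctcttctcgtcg
Rasl12: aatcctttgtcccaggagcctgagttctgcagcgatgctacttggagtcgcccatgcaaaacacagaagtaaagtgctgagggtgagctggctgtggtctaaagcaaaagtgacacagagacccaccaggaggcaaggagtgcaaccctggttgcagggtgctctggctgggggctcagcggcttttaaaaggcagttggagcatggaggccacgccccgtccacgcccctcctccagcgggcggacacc

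The windows of the RAS-like genes differed in CpG content, with 15 CpG sites for Rasl11a, 30 for Rasl11b and 8 for Rasl12. The median over all 32851 promoter windows was 6, with quartiles of 2 and 16. GC content was 63.6% for Rasl11a, 74.0% for Rasl11b and 59.2% for Rasl12, against a median of 52.4%. The Rasl11a window held 1 match to the SMAD motif, which 42.2% of all windows held. The Rasl11b window held 1 match to the TEAD motif, found in 12.6% of all windows. The Rasl12 window held none of the 4 motifs. Among the RASSF genes, the Rassf2 window held 1 SMAD and 1 TEAD match, the Rassf5 window held 1 SMAD match, and the window of Rassf4 and both windows of Rassf1 held none. No window of these genes held the AP-1 letters, present in 6.75% of all windows, or the E-box letters, present in 6.02%. The 2 Rassf1 windows start different transcripts and had 23 and 24 CpG sites. A single Rassf1 row was present. Whether it gives the gene or only the transcript it names is not stated in the sources used here. Rasl12, Rassf2, Rassf4 and Rassf5 also have several annotated transcripts. Whether their windows lie at the start of the transcript named in their row was not examined, so a match may belong to another transcript.

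Values are FPKM, the number of fragments per kilobase of transcript and per M (mega) of mapped fragments, so levels can be compared between genes. Depth, recovered from the steps between low FPKM values, was 10.1 to 11.1 M fragments per library. The treatment was visible in its usual target genes, as Col1a1, which encodes a chain of type I collagen, went from 231 ± 6.10 to 953 ± 37.4 FPKM (SD, n = 3 per group). The mesangial label was only partly met: of 8 markers, Acta2, Pdgfrb and Vim were at 3 FPKM or more in every library, and Des, Itga8, Pdgfra and Thy1 were under 1 FPKM in every library. Tested with limma on log2(FPKM + 1), 5721 of the 11898 rows whose mean FPKM reached 1 were called changed at an adjusted p (Benjamini-Hochberg) under 0.05, which is 48.1%, with 24.5% called higher and 23.6% called lower. The median change over these rows was -0.02 on the log2 scale.

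Of the 10 genes, 7 passed the filter of a mean FPKM of 1, and Rassf2, Rassf4 and Rassf9 were below it. Among the 7, 3 were called lower (Rasl11a, Rasl11b and Rassf5), 2 were called higher (Rasl12 and Rassf1) and 2 were not called (Rassf3 and Rassf8), beside the 48.1% of all tested rows given above. Without the filter, 30.5% of all rows were called, and Rassf2 and Rassf9 were then called lower as well. The groups did not overlap in 9 of the 10 genes, 6 of them lower and 3 of them higher with TGF-β1, whereas 44.1% of all rows had groups that did not overlap. Since the genes were picked from this contrast, these counts carry no weight of their own.

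**Figure D1:**
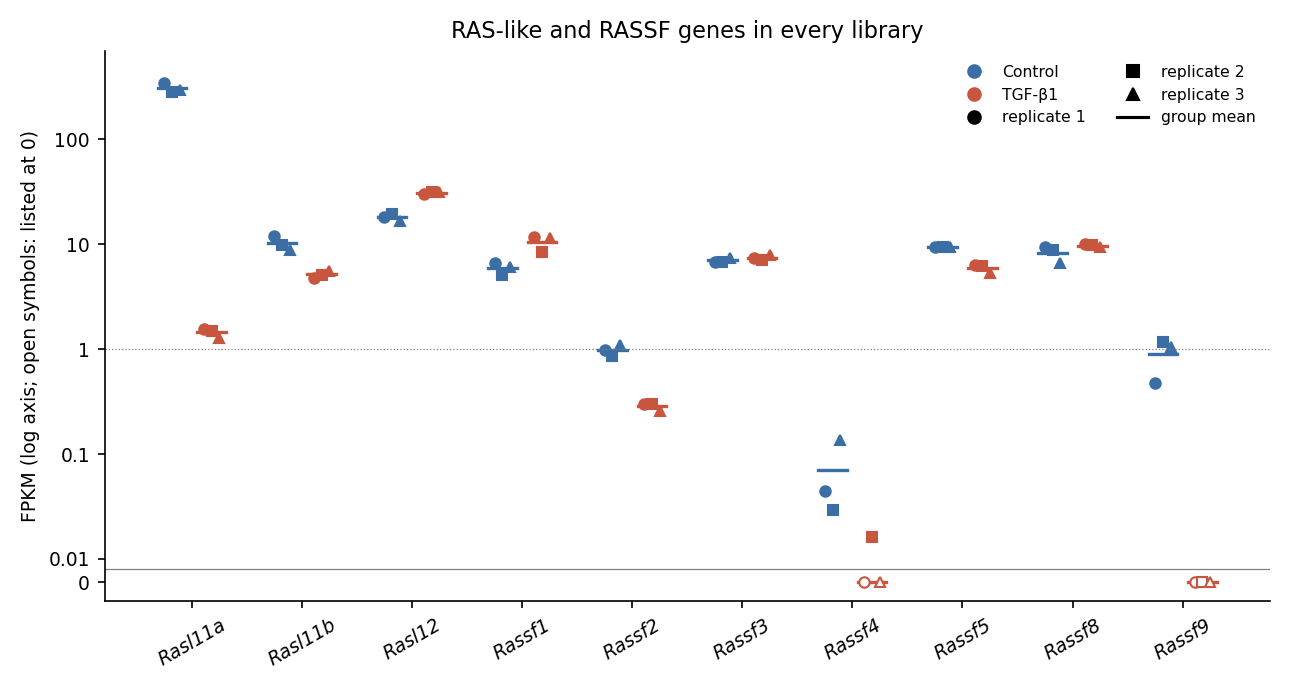
FPKM (log axis) of the 10 genes in each of the 6 libraries, with bars at the group means, symbol shapes for replicate numbers and open symbols for values listed at 0. Rasl11a spans from 286 to 344 FPKM in the Control libraries to 1.29 to 1.57 FPKM in the TGF-β1 libraries, whereas Rassf3 is the only gene whose groups overlap.

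Rasl11a, which encodes a small GTPase found at ribosomal DNA and linked to transcription by RNA polymerase I, had the largest difference of the 10 genes. In the Control libraries it stood at 344, 286 and 297 FPKM. In the TGF-β1 libraries it stood at 1.57, 1.50 and 1.29 FPKM. The groups lay far apart, with little spread inside either. The mean went from 309 ± 30.5 to 1.45 ± 0.144 FPKM (SD, n = 3 per group), a 213-fold lower level. On the log2(FPKM + 1) scale the change was -6.98 (SE 0.0984, 95% interval -7.22 to -6.74).

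The remaining Rasl11a signal was small but above zero. The FPKM values correspond to 2938 to 3533 fragments in each Control library and to 13 to 16 in each TGF-β1 library. Over the 3 TGF-β1 libraries that makes 43 fragments, with an exact 95% Poisson interval of 31.1 to 57.9 that covers counting error only. Ranked among the 19327 rows of at least 300 nt, Rasl11a went from places 238 to 270 in the Control libraries to places 10554 to 10909 in the TGF-β1 libraries. The gene lies on mm9 at chr5:147656647-147659302 (+ strand), has 4 exons and 1 annotated transcript of 1126 nt, and overlaps no other gene.

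Rasl11b encodes the closest relative of RASL11A among these proteins and lies on the same chromosome, at chr5:74591321-74595503 (+ strand, mm9). Its Control values were 12.1, 9.95 and 8.81 FPKM, and its TGF-β1 values were 4.73, 5.13 and 5.60 FPKM. All TGF-β1 libraries were below all Control libraries, although the Control libraries were spread more widely. The mean went from 10.3 ± 1.65 to 5.15 ± 0.436 FPKM, 0.501 times the Control level, with a log2 change of -0.87 (SE 0.129, 95% interval -1.18 to -0.55). The 2 RASL11 genes therefore shared a direction, but Rasl11a was an abundant transcript in the Control libraries, and Rasl11b was moderate in both groups.

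Rasl12, the third RAS-like GTPase, differed in the other direction. Its Control values were 18.4, 19.5 and 16.8 FPKM, and its TGF-β1 values were 30.3, 31.3 and 31.7 FPKM. Both groups were tight, and every TGF-β1 library was above every Control library. The mean went from 18.2 ± 1.34 to 31.1 ± 0.716 FPKM, 1.71-fold higher, with a log2 change of 0.74 (SE 0.0806, 95% interval 0.55 to 0.94). Rasl12 lies at chr9:65246295-65262660 (+ strand, mm9) and overlaps Ostb on the opposite strand. Whether the FPKM estimate used strand is not given in the sources used here, and Ostb was not analysed here.

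The makeup of the RAS-like transcripts was thus exchanged. Rasl11a made up 90.7% to 92.1% of the summed FPKM of the 3 genes in the Control libraries and 3.36% to 4.30% in the TGF-β1 libraries. Rasl12 made up 4.92% to 6.16% and then 82.1% to 82.8%. The sum itself was 316 to 374 FPKM in the Control libraries and 36.6 to 38.6 FPKM in the TGF-β1 libraries. Without Rasl11a, the sum over the other 9 genes was 57.4 to 64.3 FPKM in the Control libraries and 68.1 to 71.6 FPKM in the TGF-β1 libraries.

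Among the RASSF genes of the C-terminal type, Rassf1, whose protein binds MST kinases and stabilises microtubules, had the largest increase. Its Control values were 6.61, 5.05 and 6.02 FPKM, and its TGF-β1 values were 11.8, 8.38 and 11.5 FPKM. The groups did not overlap, and replicate 2 was the lowest library of both. The mean went from 5.89 ± 0.788 to 10.6 ± 1.89 FPKM, 1.79-fold higher, with a log2 change of 0.74 (SE 0.156, 95% interval 0.36 to 1.11). Replicate 2 minus the mean of the other libraries of its group was -0.27 (Control) and -0.43 (TGF-β1) on the log2 scale, where the others differed from each other by 0.12 and 0.03. With replicates 1 and 3 alone the change of Rassf1 was 0.79. Its transcript had the highest GC content of the 10 genes, 54.9%. For Rasl12, at 53.9% GC, the same replicate 2 differences were 0.14 (Control) and 0.02 (TGF-β1). For Rasl11b, at 53.6% GC, they were -0.05 and -0.00. The part of GC content in the replicate 2 values of Rassf1 was not tested. Rassf1 lies at chr9:107453886-107464594 (+ strand, mm9), has 9 annotated transcripts and overlaps Gm9917 on the opposite strand.

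Rassf5, known as NORE1 or RAPL, encodes a protein that binds RAS and RAP1 and takes part in integrin adhesion of lymphocytes. Control libraries held 9.52, 9.41 and 9.33 FPKM, and TGF-β1 libraries held 6.38, 6.18 and 5.27 FPKM. The Control libraries were nearly equal, and all TGF-β1 libraries were lower. The mean went from 9.42 ± 0.0948 to 5.94 ± 0.594 FPKM, 1.59-fold lower, with a log2 change of -0.59 (SE 0.0925, 95% interval -0.81 to -0.37). Rassf5 lies at chr1:133072987-133141835 (- strand, mm9) and overlaps Eif2d on the opposite strand. Eif2d rose from 33.5 ± 2.48 to 46.9 ± 3.83 FPKM (adjusted p = 0.00758 in limma, log2 change 0.47). With the common-sum scaling the Eif2d call was lost (limma adjusted p = 0.0689, log2 change 0.28).

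Rassf3, whose protein has been tied to p53 through MDM2, was the only gene with overlapping groups. Control libraries held 6.85, 6.85 and 7.48 FPKM, and TGF-β1 libraries held 7.35, 7.04 and 7.88 FPKM. The highest Control library was above the lowest TGF-β1 library. Rassf3 lies at chr10:120847406-120913306 (- strand, mm9) and has 1 annotated transcript. The log2 change was 0.06 with a 95% interval of -0.14 to 0.27, and when the libraries were scaled to a common sum over protein-coding rows it turned to -0.11. That scaling moved the median of all tested rows to -0.19, so relative to the median Rassf3 stayed slightly above.

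Rassf2 and Rassf4, whose proteins can bind RAS and, for RASSF2, the MST kinases, were low or near absent. The Control values of Rassf2 were 0.989, 0.867 and 1.09 FPKM, and the TGF-β1 values were 0.299, 0.302 and 0.256 FPKM. The groups were well separated, and the mean of 0.983 ± 0.112 FPKM was 3.44-fold above that of 0.286 ± 0.0260 FPKM. These values rest on 77 to 94 fragments per Control library and 22 to 26 per TGF-β1 library, on a transcript of 8233 nt at chr2:131815151-131855994 (- strand, mm9). The log2(FPKM + 1) change of -0.62 (SE 0.0746) understates such a low gene, and with 0.1 in place of 1 as the pseudocount it was -1.49.

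Rassf4 stood at 0.0442, 0.0295 and 0.136 FPKM in the Control libraries, which is 3, 2 and 9 fragments. In the TGF-β1 libraries it was listed at 0, 0.0161 and 0 FPKM, or 0, 1 and 0 fragments. At this depth nothing firmer than a trace in the Control libraries can be stated, and no fold is given. Rassf4 lies at chr6:116583026-116623854 (- strand, mm9). The gene 8430408G22Rik, inside its span on the opposite strand, went from 1.01 ± 0.331 to 0.0865 ± 0.0886 FPKM. Whether the exons of these genes overlap was not examined. If they do and strand was not used, their reads could be mixed.

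Of the N-terminal type, Rassf8, whose protein is found at adherens junctions, was expressed at a moderate level in both groups. Its Control values were 9.36, 8.81 and 6.67 FPKM, and its TGF-β1 values were 9.97, 9.77 and 9.40 FPKM. The groups touched without overlapping, with Control replicate 1 just under TGF-β1 replicate 3. The log2 change was 0.22 with a 95% interval of -0.09 to 0.53. It was 0.09 without Control replicate 3, the lowest library, and 0.04 with the common-sum scaling. Rassf8 lies at chr6:145695268-145769599 (+ strand, mm9), and a second annotated Rassf8 gene overlaps it on the same strand, so the division of reads between them is uncertain.

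Rassf9, also called PAMCI, encodes a protein of recycling endosomes that binds the peptide-amidating enzyme PAM. It stood at 0.471, 1.18 and 1.06 FPKM in the Control libraries, which is 10, 25 and 22 fragments. It was listed at 0 in all 3 TGF-β1 libraries, where a count of 0 allows up to 3 fragments, or 0.143 to 0.155 FPKM. Every Control value was above that limit. No fold is given, because Cufflinks can also list a gene at 0 when its estimate fails. The log2(FPKM + 1) change was -0.91 (SE 0.154), and with 0.1 as the pseudocount it was -3.24, so its size depends on the pseudocount. Rassf9 lies at chr10:101974856-102009194 (+ strand, mm9) and has 1 annotated transcript.

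**Figure D2:**
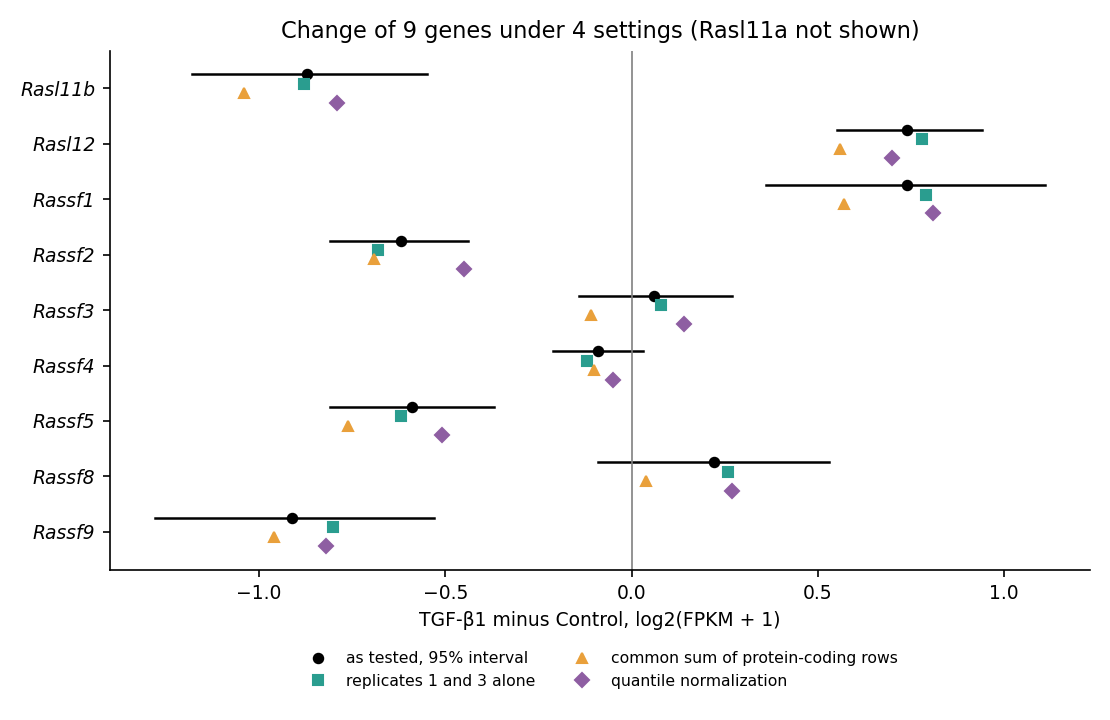
Change of 9 of the genes on the log2(FPKM + 1) scale (TGF-β1 minus Control), with black points and 95% intervals for the values as tested and coloured symbols for 3 other settings. Rasl11a, at -6.98, is left out so that the rest can be read, and the symbols keep their side of 0 in every gene but Rassf3, which runs from -0.11 to 0.14.

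The sum over the 7 RASSF genes had overlapping ranges in the groups, and its makeup differed. The 7 genes added up to 31.8 to 33.8 FPKM in the Control libraries and to 31.7 to 35.8 FPKM in the TGF-β1 libraries. Rassf1 contributed 15.7% to 19.5% of the sum in the Control libraries and 26.4% to 33.6% in the TGF-β1 libraries. Rassf5 contributed 28.1% to 29.4% and then 15.3% to 19.5%. With Rassf7, a family gene outside the 10 that is described below, the sum was 48.4 to 55.4 FPKM in the Control libraries and 37.0 to 41.2 FPKM in the TGF-β1 libraries.

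In the Control libraries the order of levels was Rasl11a, Rasl12, Rasl11b, Rassf5, Rassf8, Rassf3, Rassf1, Rassf2, Rassf9 and Rassf4. Rasl11b, Rassf5, Rassf8 and Rassf3 were neighbours whose ranges overlapped in turn, as did Rassf2 and Rassf9. In the TGF-β1 libraries the order was Rasl12, Rassf1, Rassf8, Rassf3, Rassf5, Rasl11b, Rasl11a, Rassf2, Rassf4 and Rassf9. There the ranges of Rassf1 and Rassf8, of Rassf5 and Rasl11b, and of Rassf4 and Rassf9 overlapped. Rassf1 thus stood in place 7 in the Control libraries and place 2 in the TGF-β1 libraries, and Rasl11a went from place 1 to place 7. At the level of 3 FPKM that the study used for expressed genes, 7 of the 10 were expressed in every Control library and 6 in every TGF-β1 library, with Rasl11a below it in the TGF-β1 libraries.

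These are bulk RNA values, in which fewer cells of a type and less RNA per cell cannot be told apart. Markers of other cell types moved in the same comparison. The summed level of 6 tubular epithelium markers was 125 to 161 FPKM in the Control libraries and 7.54 to 9.27 FPKM in the TGF-β1 libraries. Most of it was Cdh16, at 114 to 146 FPKM and then 5.75 to 6.87 FPKM. Aqp1 was lower as well, at 9.06 to 12.2 FPKM and then 0.0761 to 0.244 FPKM. So was Lrp2, at 1.09 to 1.93 FPKM and then 0.212 to 0.245 FPKM. The epithelial markers Cdh1 and Krt8 were under 1 FPKM in every library. Krt18, of the same list, went the other way, from 0.150 to 0.386 FPKM in the Control libraries to 1.38 to 1.81 FPKM in the TGF-β1 libraries. The 5 leukocyte markers summed to 8.19 to 9.58 FPKM in the Control libraries and to 2.26 to 3.28 FPKM in the TGF-β1 libraries. Csf1r, at 5.52 to 7.37 FPKM and then 0.234 to 0.525 FPKM, made up most of that difference, while Ptprc and Laptm5 were listed at 0 in every Control library. The 5 podocyte markers summed to 19.7 to 24.9 FPKM and to 12.6 to 13.7 FPKM, with Nphs1 under 1 FPKM in every library. The 5 endothelial markers were all under 1 FPKM. The part of such cells in the lower Rasl11a, Rasl11b, Rassf2, Rassf5 and Rassf9 values was not tested.

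The family genes outside the 10 were Rassf6, Rassf7, Rassf10, Rasl10a and Rasl10b, and 1 of these 5 passed the filter. Rassf7, of the N-terminal type, had Control values of 18.5, 16.2 and 23.6 FPKM and TGF-β1 values of 5.47, 5.32 and 5.17 FPKM. It fell from 19.4 ± 3.82 to 5.32 ± 0.151 FPKM, and the adjusted p in limma was 2.35e-04 (log2 change -1.68, SE 0.140). In the Control libraries it was thus well above each of the 7 RASSF genes described above, and in the TGF-β1 libraries below Rassf1, Rassf8 and Rassf3. Rassf6 had a mean of 0.641 ± 0.252 FPKM in the Control libraries and values of 0.155, 0.0562 and 0 FPKM in the TGF-β1 libraries. Its adjusted p was 0.0158 in the limma test without the filter, and 0.0532 to 0.0711 without Control replicate 2, Control replicate 3, TGF-β1 replicate 2 or TGF-β1 replicate 3, each left out in turn. With replicate number as a block the limma adjusted p of Rassf6 was 0.0558, and with replicates 1 and 3 alone it was 0.175. Rassf10, Rasl10a and Rasl10b were under 1 FPKM on average, and their adjusted p in the same limma test without the filter were 0.542, 0.764 and 0.992.

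Other small GTPases were counted as well. Of 30 RAS, RAP, RAL and related GTPases, 27 were in the table and 19 passed the filter, and of these 11 rose, 2 fell and 6 were not called, with a median log2 change of 0.40. With the common-sum scaling 8 rose and 2 fell, and at an adjusted p under 0.01 in limma 7 rose and 2 fell. Among those that rose were Rap1b (66.6 ± 6.08 to 118 ± 4.54 FPKM) and Rheb, the activator of mTORC1 (38.4 ± 5.63 to 68.0 ± 8.72 FPKM). Rap1b changed by 0.82 with a limma adjusted p of 7.12e-04, and Rheb by 0.81 with a limma adjusted p of 0.00465. The 2 that fell were Rrad (36.2 ± 2.10 to 10.4 ± 1.38 FPKM, limma adjusted p = 9.09e-05) and Gem (6.81 ± 1.14 to 2.86 ± 0.440 FPKM, limma adjusted p = 0.00230), both of the RGK group that inhibits calcium channels. The share called in this list was 68.4%, beside 48.1% over all tested rows. No comparison of this list, of the lists below or of the neighbours with other genes was tested.

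The regulators of RAS, RAP and RAL did not share a direction. Of 18 exchange factors, 16 were in the table and 11 were tested, with 2 higher, 4 lower and a median log2 change of -0.20. The share called was 54.5%, beside 48.1% over all tested rows. Rapgef3, the cyclic AMP-activated exchange factor of RAP1 called EPAC1, fell from 10.5 ± 2.41 to 1.40 ± 0.563 FPKM (adjusted p = 4.65e-04 in limma, log2 change -2.27). Ralgds, an effector of RAS that loads RAL, fell from 15.2 ± 2.17 to 3.81 ± 0.287 FPKM (adjusted p = 1.34e-04 in limma, log2 change -1.74). The increases were Rasgrp3, with a log2 change of 0.77 (limma adjusted p = 0.00310), and Sos2, with 0.45 (limma adjusted p = 0.0110). The Sos2 call was lost with replicates 1 and 3 alone (limma adjusted p = 0.0547) and with the common-sum scaling (limma adjusted p = 0.0622).

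Of 16 GTPase-activating proteins, 15 were in the table and 14 were tested, with 3 higher, 4 lower and a median log2 change of -0.16. The share called was 50.0%, beside 48.1% over all tested rows. Within the RAP1 branch the paralogs moved apart. Rap1gap fell from 9.75 ± 3.93 to 1.42 ± 0.710 FPKM (adjusted p = 0.00316 in limma, log2 change -2.13). Rap1gap2 rose from 1.24 ± 0.237 to 6.45 ± 0.478 FPKM (adjusted p = 1.15e-04 in limma, log2 change 1.74). Rasal2 rose by a log2 change of 1.09 (limma adjusted p = 1.77e-04), and Sipa1l2 changed by -1.07 (limma adjusted p = 7.43e-04).

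**Figure D3:**
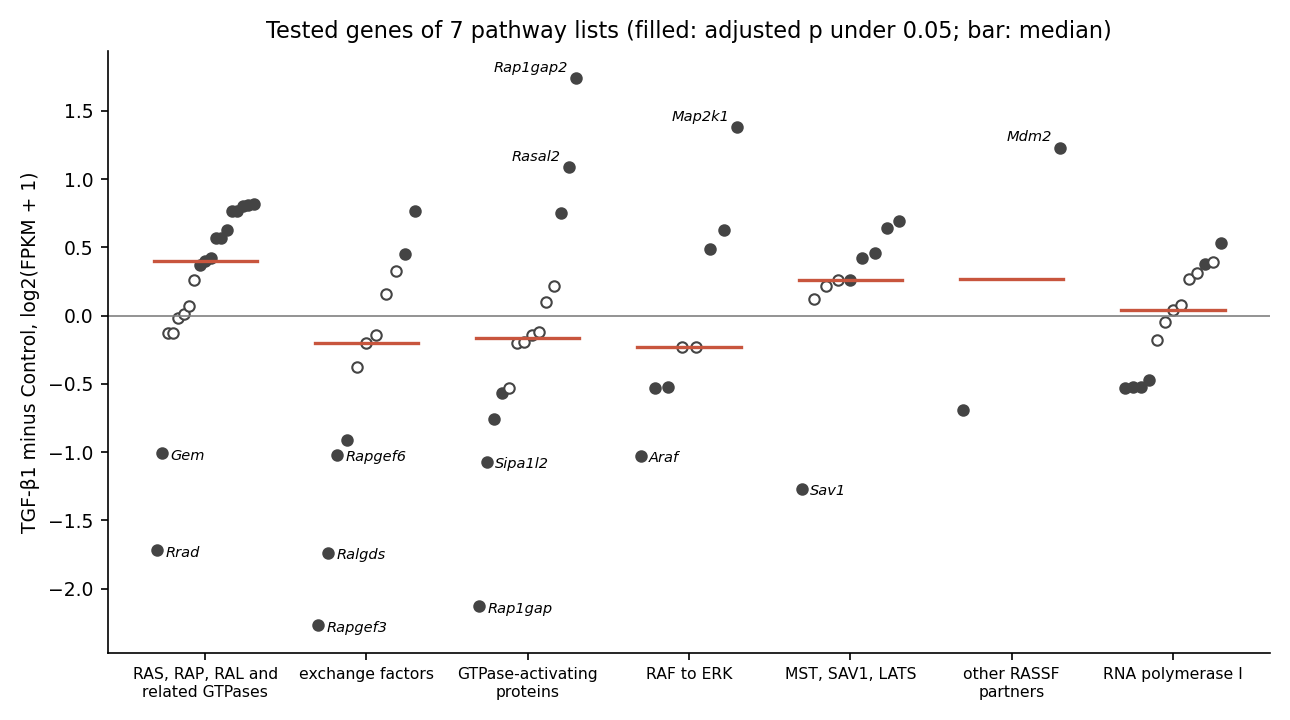
Change on the log2(FPKM + 1) scale (TGF-β1 minus Control) of every tested gene in 7 lists around the RAS-like and RASSF genes, with filled points for an adjusted p under 0.05 and bars at the list medians. The small GTPases have a median of 0.40, with Rrad and Gem far below, and the regulators spread to both sides from -2.27 for Rapgef3 to 1.74 for Rap1gap2.

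In the RAF to ERK cascade, through which RAS signals, 9 of 10 genes were in the table and 8 were tested. Of these, 3 were higher and 3 lower, with a median log2 change of -0.23. The share called was 75.0%, beside 48.1% over all tested rows. Map2k1, which encodes the kinase MEK1, rose from 23.2 ± 3.88 to 61.3 ± 2.90 FPKM (adjusted p = 3.32e-04 in limma, log2 change 1.38). Shoc2, a scaffold that promotes RAF activation, rose by a log2 change of 0.63 (limma adjusted p = 0.00236). Araf fell from 108 ± 15.8 to 52.4 ± 6.48 FPKM (adjusted p = 0.00156 in limma, log2 change -1.03). Mapk3, which encodes ERK1, changed by -0.53 (limma adjusted p = 0.00295).

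The MST, SAV1 and LATS list holds the Hippo core that C-terminal RASSF proteins join through their SARAH domain. It also holds Nf2, Yap1 and Wwtr1, which lie outside that core. Of its 10 genes, 9 were in the table and all 9 were tested. Of these, 5 rose, with Wwtr1 among them, 1 fell and 3 were not called. The share called was 66.7%, beside 48.1% over all tested rows, with a median log2 change of 0.26. With the common-sum scaling 2 rose and 1 fell, and with replicates 1 and 3 alone 1 rose and 1 fell. The one that fell was Sav1, whose protein carries a SARAH domain itself, from 57.0 ± 5.78 to 23.1 ± 1.63 FPKM (adjusted p = 2.02e-04 in limma, log2 change -1.27). The kinase gene Stk4 (MST1) rose by a log2 change of 0.42 (limma adjusted p = 0.00672), and Stk3 (MST2), at 23.7 ± 3.66 and 28.3 ± 1.57 FPKM, was not called, except without Control replicate 3 (limma adjusted p = 0.0274). The Stk4 call was lost with the common-sum scaling (limma adjusted p = 0.0744) and with replicates 1 and 3 alone (limma adjusted p = 0.0607). Mob1a rose from 28.1 ± 0.639 to 46.1 ± 1.32 FPKM (adjusted p = 4.10e-04 in limma, log2 change 0.69).

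Of the other binding partners of RASSF proteins, 2 of 4 were in the table and both were called, where 48.1% of all tested rows were. Mdm2, the ubiquitin ligase of p53, rose from 65.5 ± 5.53 to 156 ± 28.1 FPKM (adjusted p = 8.74e-04 in limma, log2 change 1.23). Pam, the partner of RASSF9, fell from 62.9 ± 6.71 to 38.6 ± 4.46 FPKM (adjusted p = 0.00439 in limma, log2 change -0.69). Pam thus stayed well expressed where Rassf9 was listed at 0.

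The list for RNA polymerase I, the enzyme of ribosomal RNA synthesis to which RASL11A has been linked, held 14 genes. Of these, 13 were in the table and all 13 were tested, with 2 higher, 4 lower and a median log2 change of 0.04. The share called was 46.2%, beside 48.1% over all tested rows. Ubtf, whose protein UBF binds ribosomal DNA, fell from 38.2 ± 4.31 to 26.1 ± 1.34 FPKM (adjusted p = 0.00708 in limma, log2 change -0.53). With replicates 1 and 3 alone the limma adjusted p of Ubtf was 0.0620. Ttf1, the termination factor, changed by -0.52 (limma adjusted p = 0.00890). Cd3eap rose by 0.53 (limma adjusted p = 0.00804), and Rrn3, the initiation factor TIF-IA, rose by 0.38 (limma adjusted p = 0.0467), a call that was lost in 11 of 18 alternatives. The count of 6 called genes went to 3 without Control replicate 2 and to 3 when any single TGF-β1 library was left out, and to 2 with replicates 1 and 3 alone. None of these changes was near the -6.98 of Rasl11a in size.

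Genes next to the 10 were compared by position on mm9, taking the 2 nearest protein-coding genes on each side. Of 40 such neighbours, 33 were in the table and 25 passed the filter, and 7 of these rose, 7 fell and 11 were not called. The share called was 56.0%, beside 48.1% over all tested rows, and the median log2 change was -0.15. On the side of lower coordinates, Rasl11a is followed by Rpl21 at a distance of 8038 bp and by Usp12 at 50064 bp. Usp12, which encodes a deubiquitinase, fell from 26.0 ± 1.97 to 7.74 ± 0.671 FPKM (adjusted p = 6.97e-05 in limma, log2 change -1.63). Rpl21, a ribosomal protein gene, changed from 2745 ± 78.8 to 1965 ± 109 FPKM (adjusted p = 0.00978 in limma, log2 change -0.48), and without TGF-β1 replicate 1 its limma adjusted p was 0.0584. Processed copies of ribosomal protein genes can share reads, so the Rpl21 value is uncertain. On the other side, Gm10858 was under the filter, and Gtf3a, at 33.8 ± 3.55 and 30.4 ± 2.60 FPKM, was not called.

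Beside Rassf5, Ikbke fell by a log2 change of -1.01 (limma adjusted p = 2.37e-04), and Dyrk3 rose by 1.45 (limma adjusted p = 0.00372). Near Rassf3, whose groups overlapped, Xpot rose from 9.65 ± 0.985 to 26.3 ± 1.05 FPKM (adjusted p = 1.13e-04 in limma, log2 change 1.36). Near Rasl12, Rassf1 and Rassf4, none of the tested neighbours was called. Under the filter, Zmynd10 beside Rassf1 went from 0.489 ± 0.173 to 0.0198 ± 0.0343 FPKM, and 8430408G22Rik within Rassf4 was lower as given above.

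**Figure D4:**
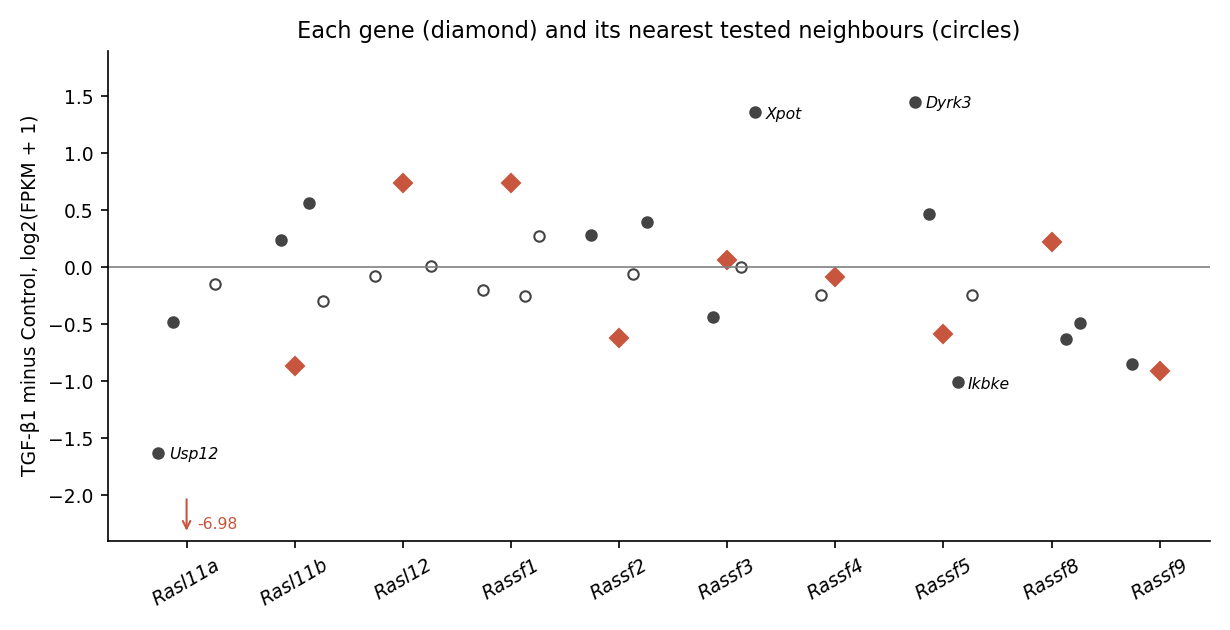
Change on the log2(FPKM + 1) scale (TGF-β1 minus Control) of each of the 10 genes (diamonds, with an arrow for Rasl11a at -6.98) and of their nearest tested neighbours on the chromosome (circles, filled for an adjusted p under 0.05, placed left for lower and right for higher coordinates). Neighbours lie on both sides of 0, and Usp12 at -1.63 has the lowest value among them.

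The genes with the profile nearest to Rasl11a over the 6 libraries, by Euclidean distance between centred log2(FPKM + 1) values, were Clu, Cxcl15, Agt, H19 and Mgp. Their distances were 0.999, 1.30, 1.33, 1.91 and 2.06. Each was far lower in the TGF-β1 libraries, such as Clu, which encodes the secreted chaperone clusterin, at 415 ± 19.5 and 4.59 ± 0.415 FPKM. Agt, which encodes angiotensinogen, went from 74.2 ± 5.15 to 0.220 ± 0.105 FPKM, and Mgp, which encodes matrix Gla protein, from 258 ± 16.7 to 5.55 ± 0.968 FPKM. The distance mostly reads the size of the change, so it lists genes with a difference close to that of Rasl11a. Nearest to Rassf1 were Derl1, Rer1, Rheb, B230312A22Rik and Slc25a33, at distances of 0.137 to 0.177. Derl1, which acts in the degradation of proteins from the endoplasmic reticulum, went from 26.8 ± 2.45 to 48.1 ± 7.31 FPKM.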

How the data were processed

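Libraries were made with standard Illumina protocols, and whether they kept strand is not given in the sources used here. Reads that passed the quality filter of the authors were aligned to mm9 by TopHat (TopHat2 2.0.11 in the submitters' processing notes), and the authors obtained FPKM from Cufflinks. The deposited table holds FPKM, with a column for each library. The authors tested counts with DESeq. No counts were used here.

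Groups and replicate numbers were taken from the sample labels. limma 3.58.1 (R 4.3.3, eBayes with a mean-variance trend) was run on log2(FPKM + 1) over rows whose mean FPKM reached 1, two-sided, with Benjamini-Hochberg adjustment and a threshold of 0.05. Genes under the filter were read from the same test without it. The script was tested on simulated data. The 10 genes, the lists and the tests were chosen with earlier results of these data known, so the 10 genes carry no p-value. Named were the 10 genes, the other family genes, the 2 largest increases and decreases of each list, neighbours with a log2 change of at least 1, the nearest neighbours of Rasl11a, the 5 nearest profiles of Rasl11a and of Rassf1, and the treatment check genes. Eif2d, 8430408G22Rik, Stk3, Stk4, Wwtr1, Zmynd10 and Gtf3a were added after their values were seen. The treatment check genes Ctgf, Col1a1 and Acta2 were called higher. Some genes are not reported here.

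Low FPKM values are whole multiples of what 1 fragment is worth, if 196 nt are taken off the transcript length. Within 0.05 of a whole number were 98.8% of 6694 values of single-transcript genes under 20 fragments, but only 63.1% of 16732 values over all protein-coding rows, so no count test was run. Fragment numbers are approximate for genes with several transcripts. The sources used here do not say whether a row gives the level of the gene or of the transcript it names. Of 19730 rows, 19699 were found in the mm9 annotation (GENCODE M1) by transcript identifier. Genes of the lists without a row were not analysed here. Other software was Python 3.11.15 with pandas 2.3.3, numpy 2.4.6, scipy 1.17.1 and matplotlib 3.10.9.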

Additional observations from a re-analysis of the deposited data

How the results depend on the processing

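Each result was recomputed under 18 alternatives, 6 of which left out 1 library. The number of changed genes fell from 5721 to 3672 at an adjusted p under 0.01, and was 4419 to 5446 when 1 library was left out. With the common sum of protein-coding rows, 2015 genes were higher and 3927 lower, so 33.9% of the calls were higher against 50.9% in the test as reported. The number of the 10 genes called stayed at 5 in all alternatives with the filter and was 7 without it, the pathway genes called numbered 34 to 48, and the neighbours called numbered 10 to 14. Rasl10b turned to 0.17 with quantile normalization and ran from -0.04 to 0.03 with 1 library left out. Rasl10a turned to -0.23 with replicates 1 and 3 alone and ran from -0.16 to 0.42 with 1 library left out, Rassf10 from -0.06 to 0.00 and Gm10858 from 0.00 to 0.02. All 4 had mean values under 1 FPKM, and the cause was not tested. Same-numbered libraries deviated from their group means with correlations of 0.0921, 0.232 and 0.0853 across genes, against -0.194 to 0.117 for the other pairs. Control replicates 2 and 3 correlated best with their own number, but Control replicate 1 correlated best with TGF-β1 replicate 3. The numbers were therefore not taken as pairs. With the replicate block, 5391 genes were called, and with replicate 2 as a batch term 5947 were called. Depth limits Rassf4, Rassf9 and the treated level of Rasl11a.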
